A study of Homo sapiens with 16 samples.

Results

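Integrins are the receptors that hold a cell to the matrix around it, and focal adhesions are the protein plaques that form on their inner side. The 43 genes described here comprise 17 integrin chains and 26 adaptors, linkers and kinases of these plaques, taken from the 58735 genes of the count tables by their GENCODE 29 symbol, and 43 of 43 were found. Messenger RNA was measured by RNA sequencing of poly-T selected RNA in 4 groups of 4 libraries. MDA-MB-231 cells received siYES1, an siRNA against the Src family kinase YES1, or siNS, an siRNA against firefly luciferase. SUM159PT cells received the same pair, and all groups were labelled 48 h. Lipofectamine2000 was used in every group, the labels give the genotype WT for every sample, and both lines are labelled as triple negative breast cancer cells. YES1 was thus lowered by RNA interference in a cell population and was not deleted. The count columns of the second line carry the prefix S149, so its name SUM159PT rests on the sample titles and labels. The design text calls the libraries technical replicates, so p-values describe the spread among such libraries, which may be technical.

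An integrin is a pair of 1 α and 1 β chain, and the pair decides which matrix protein is bound. Chain β1 pairs with many α chains, among them the laminin receptors α3, α6 and α7, the fibronectin receptor α5 and the collagen receptors α1, α2, α10 and α11. Chain β4 pairs with α6 alone in hemidesmosomes, and αV pairs with β1, β3, β5, β6 and β8. Talin and kindlin bind the β tail and switch the receptor on. Vinculin, α-actinin and the complex of ILK, PINCH and parvin tie it to actin, while FAK, paxillin and p130Cas carry signals through Src family kinases.

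Libraries held 15680459 to 23451253 counts. Levels are given as CPM, counts divided by a library size that was scaled with TMM factors over all 16 libraries, and ± after a level is the SD of 4 libraries. Log2 fold changes (siYES1 over siNS, ± SE) come from edgeR fits of each line's own 8 libraries with its own TMM factors, so they can differ slightly from the ratio of printed CPM. Their SE is the absolute log2 fold change divided by the square root of the F statistic of the test. Differences of the response between lines come from 1 fit of all 16 libraries with TMM factors over all 16. Such a difference therefore need not equal the gap between the printed log2 fold changes of the lines. The threshold for a call was an adjusted p (Benjamini-Hochberg, over all genes tested) under 0.05. YES1 itself stood at 11.7 to 13.4 CPM in the 4 siYES1 libraries and 54.3 to 69.2 CPM in the 4 siNS libraries of MDA-MB-231, where 20.9% of its level remained. In SUM159PT it stood at 17 to 20.8 CPM with siYES1 and 104 to 158 CPM with siNS, where 13.2% remained. The siNS libraries of MDA-MB-231 were split on the second principal component of that line, which held 10.1% of the variance. Replicates 1 and 2 stood at 16.5 and 25.3, and replicates 3 and 4 at -20.9 and -21.5. SUM159PT siNS replicate 1 stood apart on the second principal component of its line (56.6, against -39.1 to -14.6 for the other 3 siNS libraries, with 14.4% of the variance). Without it the SUM159PT siYES1 calls of 3 members changed (ZYX, ARHGEF7 and CTTN), and values without it are given below for these and for several members in which it was the lowest library of its group. The hormone receptor gene PGR had 0 to 0.125 CPM and ESR1 0 to 1.4 CPM in all libraries, ERBB2 had 49.4 to 121 CPM, and the mesenchymal marker VIM had 397 to 2521 CPM.

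With siYES1 the members changed in both directions in both lines. In MDA-MB-231 38 of the 43 passed the filter on low counts, of which 10 rose, 14 fell and the other 14 missed the threshold. Their median log2 fold change was -0.10. Over all 14319 genes tested there 24.9% were called higher and 27.5% lower, with a median of 0.002. In SUM159PT 39 passed, of which 10 rose, 16 fell and the other 13 missed it. Their median was -0.03. Over all 14469 genes tested in that line 17.7% were called higher and 19.0% lower, with a median of -0.029. Among the 17 integrin chains 4 rose and 6 fell of 13 tested in MDA-MB-231, and 4 rose and 8 fell of 14 tested in SUM159PT. Among the 26 adaptors 6 rose and 8 fell of 25 tested in each line. The median log2 fold change was -0.25 for integrins and -0.07 for adaptors in MDA-MB-231, and -0.35 for integrins and 0.06 for adaptors in SUM159PT. Without SUM159PT siNS replicate 1 the adaptors of that line numbered 8 that rose and 9 that fell, and the integrins again 4 and 8. ITGA4, ITGB6 and ITGB7, chains of receptors of leukocytes and epithelia, had 0 to 14 counts in every library and were not tested in either line.

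**Figure D1:**
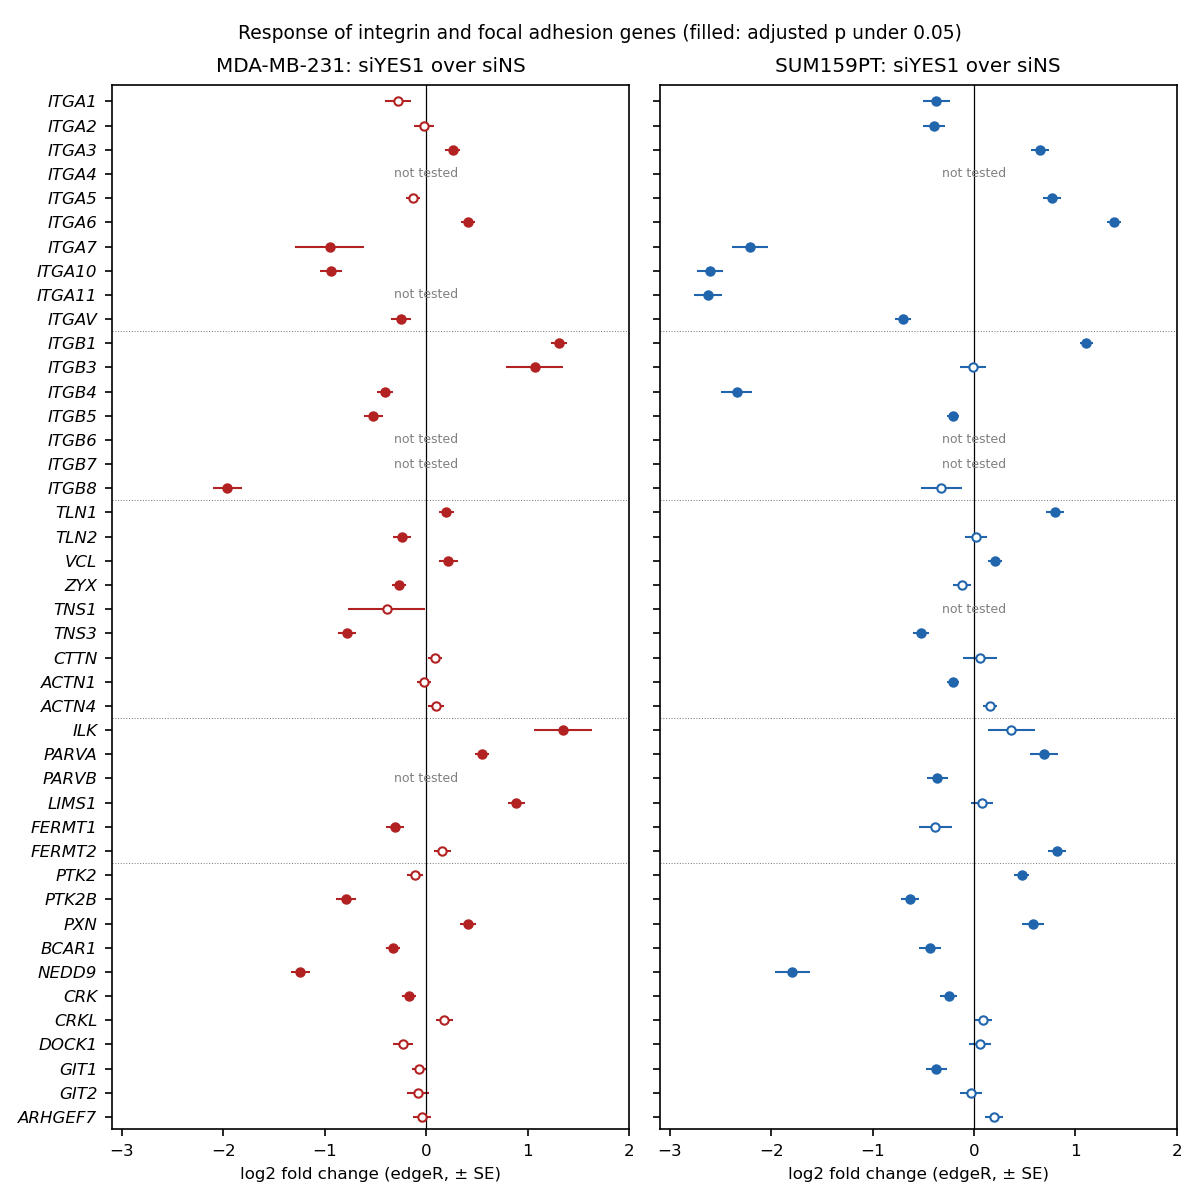
Log2 fold change of each member (x axis, siYES1 over siNS, bars ± SE derived from the edgeR F statistic) in MDA-MB-231 (left) and SUM159PT (right). Filled points have an adjusted p under 0.05, dotted lines divide α chains, β chains, actin linkers, the ILK complex with kindlins, and kinases with scaffolds. ITGB1 lies right of 0 in both lines, and ITGA10, ITGA7 and ITGB4 lie furthest left in SUM159PT with ITGA11.

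Among β chains ITGB1 rose in both lines and ITGB4 and ITGB5 fell in both. ITGB1 (ENSG00000150093, chr10:32900319-33005792, minus strand of GRCh38) encodes β1, the shared partner of most of the α chains above. In MDA-MB-231 ITGB1 had 1076, 1103, 1077 and 1086 CPM with siYES1, against 518, 436, 473 and 393 CPM with siNS. In SUM159PT ITGB1 had 1492, 1493, 1538 and 1520 CPM with siYES1, against 689, 666, 667 and 692 CPM with siNS. Every siYES1 library lay above every siNS library of its line, by a wide gap. The log2 fold change was 1.31 ± 0.08 in MDA-MB-231 (edgeR adjusted p = 1.7e-09) and 1.11 ± 0.06 in SUM159PT (edgeR adjusted p = 6.1e-08). The difference between the lines was -0.10 (SUM159PT minus MDA-MB-231, edgeR adjusted p = 0.519). With total counts in place of TMM it was -0.32 (edgeR adjusted p = 0.0283).

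ITGB4 (ENSG00000132470, chr17:75721328-75757818, plus strand) encodes β4, the hemidesmosome chain. In SUM159PT ITGB4 had 23.4, 31, 24.9 and 26.7 CPM with siYES1, against 91.5, 141, 128 and 160 CPM with siNS. In MDA-MB-231 ITGB4 had 401, 391, 358 and 350 CPM with siYES1, against 477, 456, 558 and 577 CPM with siNS. The groups did not overlap in either line, and 20.4% of the siNS mean remained in SUM159PT and 72.5% in MDA-MB-231. The log2 fold change was -2.34 ± 0.15 in SUM159PT (edgeR adjusted p = 3.35e-07) and -0.41 ± 0.08 in MDA-MB-231 (edgeR adjusted p = 0.000686), and the fall was deeper in SUM159PT by -1.83 (edgeR adjusted p = 1.96e-07).

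ITGB8 showed the opposite order of the lines. It encodes β8, a partner of αV that binds latent TGF-β. In MDA-MB-231 ITGB8 had 3.22, 3.61, 3.28 and 2.91 CPM with siYES1, against 16.4, 11.4, 11.7 and 13.1 CPM with siNS. In SUM159PT ITGB8 had 6.52, 7.9, 4.94 and 5.83 CPM with siYES1, against 6, 7.48, 7.93 and 9.07 CPM with siNS. The groups were far apart in MDA-MB-231 (-1.96 ± 0.14, edgeR adjusted p = 1.33e-08) and overlapped in SUM159PT (-0.32 ± 0.20, edgeR adjusted p = 0.243; -0.43 without siNS replicate 1, edgeR adjusted p = 0.0908). The difference between lines was 1.73 (edgeR adjusted p = 3.16e-05). ITGB5, whose chain pairs with αV on vitronectin, fell by 0.52 in MDA-MB-231 (edgeR adjusted p = 0.000101) and by 0.21 in SUM159PT (edgeR adjusted p = 0.0205) on the log2 scale. ITGB3, the β chain of the vitronectin receptor αVβ3, rose by 1.07 ± 0.28 in MDA-MB-231 (edgeR adjusted p = 0.00474), where it had 1.26 to 2.08 CPM with siYES1 and 0.545 to 1.15 CPM with siNS. In SUM159PT ITGB3 had 20.6 to 25.3 CPM with siYES1 and 19.1 to 25.2 CPM with siNS, with a log2 fold change of -0.01. On the same strand the gene AC068234.1 overlaps 51.6% of the exon bases of ITGB3 and had 0 counts. The counts of ITGB3, and its level per kb, are therefore uncertain.

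**Figure D2:**
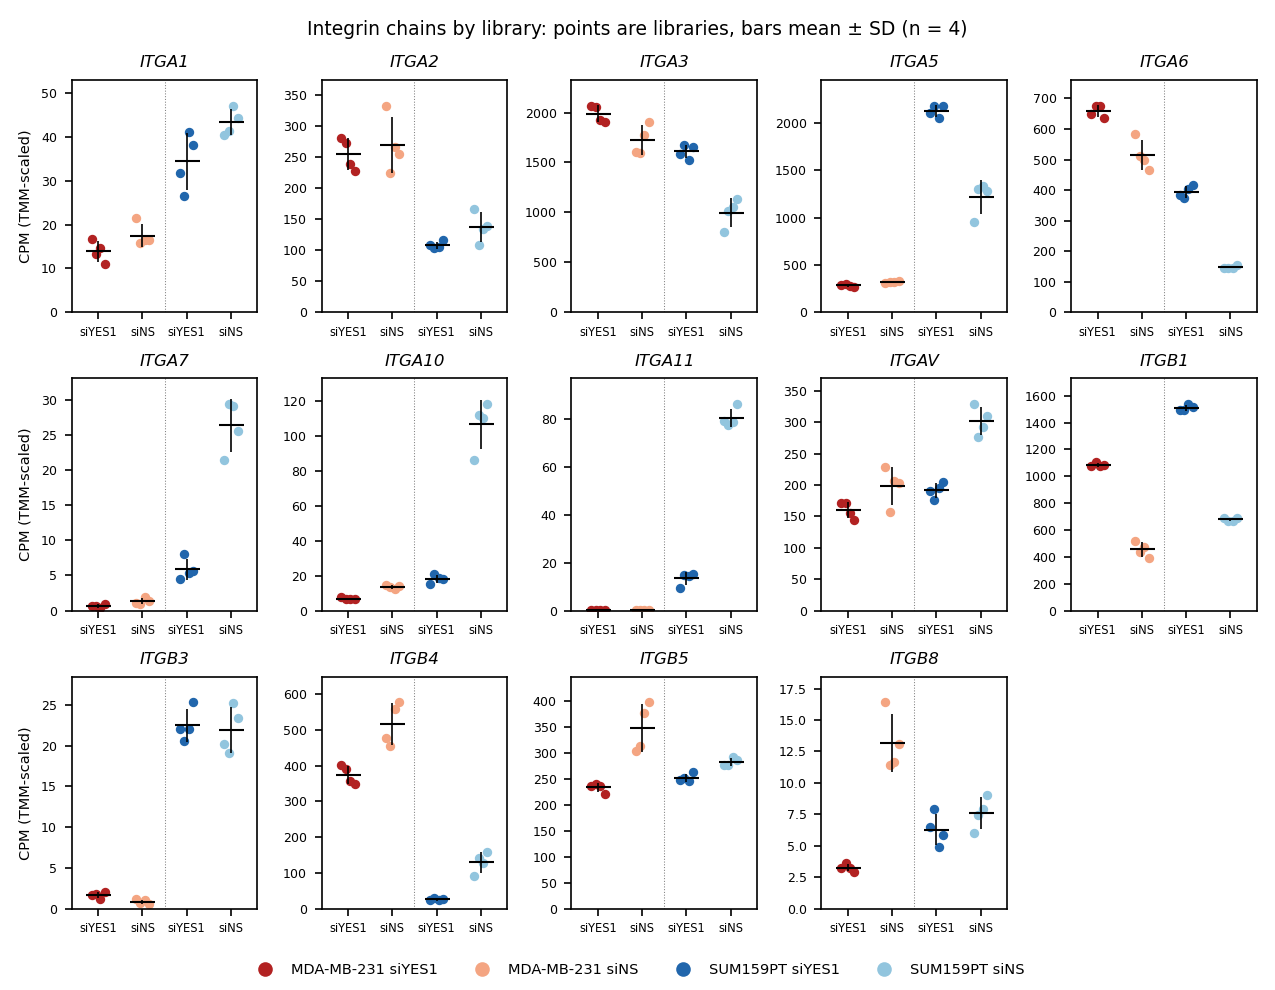
Level of the 14 integrin chains above the filter in at least 1 line (y axis, TMM-scaled CPM, linear and starting at 0, own scale per gene) in the 4 groups, with siYES1 left of siNS in each line. Points are libraries and bars are mean ± SD of 4 libraries. ITGB1 is higher with siYES1 in both lines, ITGA5 is higher in SUM159PT, and ITGA10, ITGA11, ITGA7 and ITGB4 are lower in SUM159PT.

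Among the α chains the laminin receptors ITGA3 and ITGA6 rose in both lines, and the collagen receptor ITGA10 and the laminin receptor ITGA7 fell in both. ITGA6, partner of both β1 and β4, had 384, 373, 403 and 417 CPM with siYES1 in SUM159PT, against 144, 146, 146 and 153 CPM with siNS. In MDA-MB-231 ITGA6 had 650, 675, 676 and 637 CPM with siYES1, against 584, 511, 497 and 467 CPM with siNS. The groups did not overlap in either line. The log2 fold change was 1.38 ± 0.07 in SUM159PT (edgeR adjusted p = 4.13e-08) and 0.41 ± 0.07 in MDA-MB-231 (edgeR adjusted p = 0.000192), with a difference of 1.06 (edgeR adjusted p = 1.11e-07). ITGA6 thus rose in the line in which its partner gene ITGB4 fell to 20.4%.

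ITGA3, whose chain binds laminins with β1, had 1585, 1680, 1527 and 1651 CPM with siYES1 in SUM159PT, against 800, 1013, 1051 and 1130 CPM with siNS. In MDA-MB-231 ITGA3 had 2068, 2056, 1930 and 1909 CPM with siYES1, against 1610, 1599, 1773 and 1910 CPM with siNS. The groups were apart in SUM159PT (0.65 ± 0.09, edgeR adjusted p = 0.00015) and touched in MDA-MB-231 (0.26 ± 0.07, edgeR adjusted p = 0.00719). Without SUM159PT siNS replicate 1, the lowest of its group, the value in SUM159PT was 0.55 (edgeR adjusted p = 5.29e-08). In a joint fit of all 16 libraries the call in MDA-MB-231 was lost (0.21, edgeR adjusted p = 0.0657). The rise was larger in SUM159PT by 0.48 (edgeR adjusted p = 0.00627), and total counts as the scaling ended that call (0.26, edgeR adjusted p = 0.0816).

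ITGA5, the α chain of the fibronectin receptor, differed between the lines in its response. In SUM159PT ITGA5 had 2106, 2182, 2048 and 2182 CPM with siYES1, against 950, 1302, 1334 and 1282 CPM with siNS. In MDA-MB-231 ITGA5 had 292, 296, 279 and 264 CPM with siYES1, against 312, 324, 323 and 331 CPM with siNS. All siYES1 libraries lay above siNS in SUM159PT and below it in MDA-MB-231. The log2 fold change was 0.77 ± 0.09 in SUM159PT (edgeR adjusted p = 4.69e-05) and -0.13 ± 0.07 in MDA-MB-231, where the call was missed (edgeR adjusted p = 0.104). The lines differed by 1.00 (edgeR adjusted p = 2.59e-06). In SUM159PT siNS replicate 1 was the lowest library of its group, and without it the log2 fold change was 0.66 (edgeR adjusted p = 5.03e-10). In MDA-MB-231 ITGA5 passed as lower with total counts as the scaling (-0.18, edgeR adjusted p = 0.0287) and without siNS replicate 1 (-0.15, edgeR adjusted p = 0.0457).

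The 3 α chains that fell most in SUM159PT were ITGA11, ITGA10 and ITGA7. ITGA10 (ENSG00000143127, chr1:145891208-145910189, minus strand), a collagen receptor best known from cartilage, had 15.1, 20.9, 18.7 and 17.8 CPM with siYES1 in SUM159PT, against 86.2, 112, 110 and 118 CPM with siNS. In MDA-MB-231 ITGA10 had 7.48, 6.31, 6.78 and 6.48 CPM with siYES1, against 14.5, 13.2, 12.3 and 14.1 CPM with siNS. No library crossed into the other group in either line. The log2 fold change was -2.60 ± 0.13 in SUM159PT (edgeR adjusted p = 3.88e-08) and -0.94 ± 0.11 in MDA-MB-231 (edgeR adjusted p = 2.43e-06), with a difference of -1.55 (edgeR adjusted p = 7.53e-07).

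ITGA11, a receptor of fibrillar collagen found mainly on mesenchymal cells, had 9.35, 14.9, 14.2 and 15.4 CPM with siYES1 in SUM159PT, against 78.8, 77.5, 78.7 and 86 CPM with siNS. The groups lay far apart, at -2.62 ± 0.14 on the log2 scale (edgeR adjusted p = 7.02e-08). MDA-MB-231 had 1 to 5 counts per library in both groups, too few for a test within that line, so its difference between lines (-2.89, edgeR adjusted p = 0.00148) rests on those few counts. ITGA7, a laminin receptor best known from muscle, had 4.5, 8.02, 5.39 and 5.63 CPM with siYES1 in SUM159PT, against 21.4, 29.4, 29.1 and 25.6 CPM with siNS. These groups did not overlap, at -2.21 ± 0.18 (edgeR adjusted p = 1.8e-06). In MDA-MB-231 ITGA7 had 0.345 to 0.951 CPM with siYES1 and 0.955 to 1.91 CPM with siNS (-0.95 ± 0.34, edgeR adjusted p = 0.0249). That call was lost without siNS replicate 3 (-0.73, edgeR adjusted p = 0.0973), without siYES1 replicate 1 (-0.91, edgeR adjusted p = 0.0587) or without siYES1 replicate 3 (-0.75, edgeR adjusted p = 0.0879).

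ITGAV, the partner of β5 and β8, fell in both lines. In SUM159PT ITGAV had 190, 176, 195 and 205 CPM with siYES1, against 329, 276, 293 and 310 CPM with siNS. In MDA-MB-231 ITGAV had 171, 171, 156 and 145 CPM with siYES1, against 228, 157, 207 and 203 CPM with siNS. The groups were apart in SUM159PT (-0.70 ± 0.08, edgeR adjusted p = 2.37e-05) and overlapped in MDA-MB-231 (-0.25 ± 0.10, edgeR adjusted p = 0.0375). The call in MDA-MB-231 was lost in 5 of 8 fits that left out 1 library: without siNS replicate 1 (-0.18, edgeR adjusted p = 0.129), 3 (-0.23, edgeR adjusted p = 0.0927) or 4 (-0.24, edgeR adjusted p = 0.0731), and without siYES1 replicate 3 (-0.24, edgeR adjusted p = 0.0959) or 4 (-0.20, edgeR adjusted p = 0.126). The collagen receptors ITGA1 and ITGA2 fell in SUM159PT on the log2 scale, with overlapping groups. ITGA1 fell by 0.37 (edgeR adjusted p = 0.0422) and ITGA2 by 0.39 (edgeR adjusted p = 0.0143). Their log2 fold changes in MDA-MB-231 were -0.28 (edgeR adjusted p = 0.0819) and -0.02 (edgeR adjusted p = 0.866).

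Set per kilobase of GENCODE 29 exon, so that chains can be compared, the make-up of the β pool moved toward β1 in both lines. This pool is the 7 β chains among the members. It leaves out ITGB2, whose fall in MDA-MB-231 is given below. In SUM159PT ITGB1 made up 83.8% ± 0.538 of the summed β chain level with siYES1 and 62.2% ± 1.96 with siNS (SD, n = 4 each). In MDA-MB-231 it made up 66.2% ± 1.11 with siYES1 and 36.6% ± 4.77 with siNS. ITGB4 made up 1.31% with siYES1 and 10.6% with siNS in SUM159PT, and 20.3% with siYES1 and 36.8% with siNS in MDA-MB-231. The ranges of these shares did not overlap between the groups. ITGB5, at 13.0% with siYES1 and 24.1% with siNS in SUM159PT and 13.3% with siYES1 and 25.9% with siNS in MDA-MB-231, held a smaller share with siYES1 in both lines. A share also falls when the sum grows. The level of ITGB5 itself was 39.07 CPM per kb with siYES1 and 43.87 with siNS in SUM159PT. In MDA-MB-231 it was 36.22 with siYES1 and 53.91 with siNS. The summed β level was 299.9 ± 4.11 CPM per kb with siYES1 and 181.5 ± 5.54 with siNS in SUM159PT, and 273 ± 5.48 with siYES1 and 207.3 ± 13.4 with siNS in MDA-MB-231. These sums and shares are descriptions of transcript levels, without a test.

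The α pool, the 10 α chains among the members, kept its leading chain in each line. In SUM159PT ITGA5 held 51.1% with siYES1 and 43.2% with siNS, followed by ITGA3 at 29.9% with siYES1 and 27.5% with siNS, and ITGA6 at 11% with siYES1 and 6.14% with siNS. The collagen receptors ITGA10 and ITGA11 together with ITGA7 held small shares in SUM159PT: ITGA10 had 0.522% with siYES1 and 4.55% with siNS, ITGA11 0.225% with siYES1 and 2.01% with siNS, and ITGA7 0.168% with siYES1 and 1.12% with siNS. The chains with the deepest falls were thus minor in the pool. In MDA-MB-231 ITGA3 held 51.4% with siYES1 and 49% with siNS, and ITGA6 25.6% with siYES1 and 22% with siNS.

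Promoter sequence was read for the members from the RefSeq promoter table (GRCh38.p14), which held 34 of the 43. In the 250 bases upstream of any start listed for a gene, on either strand, the TEAD element GGAATG was found in 7 of 34 members (20.6%) and in 14.3% of all 27305 genes of the table. The AP-1 element TGANTCA was found in 4 members (11.8%, against 8.06% of all genes), and the GC box GGGCGG in 24 (70.6%, against 46.2%). The CArG box, the site of serum response factor, was found in 2 members (5.88%, against 1.44%). Matches of different motifs may share bases. The members with GGAATG were ITGA5, ITGA10, ITGB1, PXN, VCL, TNS1 and ACTN1. Stretches of 100 bases around the element are shown for 4 of them, because they include 3 genes that rose in SUM159PT (ITGB1, ITGA5 and PXN) and 1 that fell in both lines (ITGA10). Capitals mark GGAATG or its reverse complement CATTCC, and each stretch is given 5′ to 3′ on the gene's own strand, which is minus for all 4. The stretches are chr10:32958358-32958457, chr12:54419294-54419393, chr1:145910087-145910186 and chr12:120250176-120250275 in this order.
ITGB1: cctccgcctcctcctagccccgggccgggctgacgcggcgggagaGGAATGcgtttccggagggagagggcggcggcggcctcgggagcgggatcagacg
ITGA5: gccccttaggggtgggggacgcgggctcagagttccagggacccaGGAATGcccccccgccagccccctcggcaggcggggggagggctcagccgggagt
ITGA10: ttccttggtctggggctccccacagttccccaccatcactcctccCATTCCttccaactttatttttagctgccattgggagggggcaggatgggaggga
PXN: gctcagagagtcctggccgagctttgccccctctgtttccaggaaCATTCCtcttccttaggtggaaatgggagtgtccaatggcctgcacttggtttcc
The element begins 182 bases upstream of the listed start in ITGB1, 82 in ITGA5, 91 in ITGA10 and 67 in PXN. All 4 stretches lie inside the GENCODE 29 bounds of their genes, so the listed start is not the outermost one. Those of ITGB1 and PXN lie furthest inside, with 5′ ends of the genes at 33005792 and 120265771. A match is a description of these letters and not evidence of binding. The 4 genes were picked to include both directions, so their directions carry no information on the element, and its part was not tested. A gene with more listed starts also offered more bases to the search.

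Among the kinases and scaffolds NEDD9 and PTK2B fell in both lines and PXN rose in both. NEDD9 is a scaffold of the p130Cas family that FAK and Src kinases phosphorylate. In MDA-MB-231 NEDD9 had 39.6, 36.8, 35.9 and 31.1 CPM with siYES1, against 101, 88.3, 77.5 and 86.3 CPM with siNS. In SUM159PT NEDD9 had 4.39, 3.95, 3.57 and 3.63 CPM with siYES1, against 13, 12, 12.3 and 15 CPM with siNS. The groups were far apart in both lines. The log2 fold change was -1.24 ± 0.09 in MDA-MB-231 (edgeR adjusted p = 1.66e-08) and -1.79 ± 0.17 in SUM159PT (edgeR adjusted p = 5.4e-06), the largest fall among the adaptors in each line.

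PTK2B encodes PYK2, the kinase closest to FAK. In MDA-MB-231 PTK2B had 14.4, 14.5, 13.1 and 15 CPM with siYES1, against 24.1, 23.3, 27 and 27.7 CPM with siNS. In SUM159PT PTK2B had 75.6, 77.1, 83.6 and 79.6 CPM with siYES1, against 98.8, 126, 127 and 124 CPM with siNS. The groups did not overlap in either line (-0.79 ± 0.10 in MDA-MB-231, edgeR adjusted p = 3.38e-06, and -0.63 ± 0.09 in SUM159PT, edgeR adjusted p = 0.000163). Without SUM159PT siNS replicate 1, the lowest of its group, PTK2B had -0.72 there (edgeR adjusted p = 3.27e-08). PTK2, which encodes FAK itself, had 292, 285, 306 and 292 CPM with siYES1 in SUM159PT, against 199, 215, 210 and 201 CPM with siNS. In MDA-MB-231 PTK2 had 161, 163, 161 and 160 CPM with siYES1, against 210, 176, 171 and 169 CPM with siNS. PTK2 rose in SUM159PT (0.47 ± 0.07, edgeR adjusted p = 0.000127) and was not called in MDA-MB-231 (-0.11 ± 0.08, edgeR adjusted p = 0.229), although its printed levels there do not overlap. The lines differed by 0.68 (edgeR adjusted p = 4.63e-05).

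PXN encodes paxillin, a scaffold at the core of the plaque that binds FAK and vinculin. In MDA-MB-231 PXN had 471, 455, 429 and 430 CPM with siYES1, against 354, 300, 365 and 373 CPM with siNS. In SUM159PT PXN had 481, 531, 468 and 515 CPM with siYES1, against 246, 378, 342 and 331 CPM with siNS. Every siYES1 library was above every siNS library of its line (0.41 ± 0.08, edgeR adjusted p = 0.000258 in MDA-MB-231, and 0.58 ± 0.11, edgeR adjusted p = 0.00108 in SUM159PT). Without SUM159PT siNS replicate 1, the lowest library, the log2 fold change there was 0.46 (edgeR adjusted p = 3.22e-06). An antisense gene, PXN-AS1, overlaps 12.3% of the exon bases of PXN, and the strand setting of the counting is not given in the sources used here.

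BCAR1 encodes p130Cas, a substrate of Src family kinases that carries Crk and DOCK1. In MDA-MB-231 BCAR1 had 220, 219, 208 and 217 CPM with siYES1, against 256, 277, 295 and 304 CPM with siNS. In SUM159PT BCAR1 had 194, 195, 170 and 196 CPM with siYES1, against 193, 283, 246 and 267 CPM with siNS. The groups were apart in MDA-MB-231 (-0.33 ± 0.07, edgeR adjusted p = 0.000944), and in SUM159PT siNS replicate 1 lay among the siYES1 libraries (-0.43 ± 0.11, edgeR adjusted p = 0.00625). Without that library the log2 fold change in SUM159PT was -0.54 (edgeR adjusted p = 9.77e-07). Of the proteins around p130Cas, the adaptor CRK fell by 0.17 in MDA-MB-231, where it just passed (edgeR adjusted p = 0.0456). In SUM159PT CRK fell by 0.25 (edgeR adjusted p = 0.0211). Its relative CRKL and the Rac exchange factor DOCK1 were not called in either line. GIT1, a partner of paxillin, fell by 0.37 in SUM159PT (edgeR adjusted p = 0.0141), and GIT2 and the exchange factor ARHGEF7 (β-PIX) were not called in either line. ARHGEF7 passed as higher in SUM159PT without siNS replicate 1 (0.25, edgeR adjusted p = 0.0131; 0.20 with all libraries, edgeR adjusted p = 0.0914). On the opposite strand TCHP overlaps 22.1% of the exon bases of GIT2, so the counts of GIT2 are uncertain.

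Among proteins that link integrins to actin TLN1 rose and TNS3 fell in both lines. TLN1 encodes talin 1, which binds the β tail. In SUM159PT TLN1 had 935, 967, 905 and 1019 CPM with siYES1, against 521, 456, 554 and 610 CPM with siNS. In MDA-MB-231 TLN1 had 881, 885, 813 and 768 CPM with siYES1, against 758, 709, 777 and 788 CPM with siNS. The groups were apart in SUM159PT (0.80 ± 0.09, edgeR adjusted p = 1.8e-05) and overlapped in MDA-MB-231 (0.20 ± 0.07, edgeR adjusted p = 0.0277), with a difference between lines of 0.70 (edgeR adjusted p = 0.000111). The call in MDA-MB-231 was lost with total counts as the scaling (0.15, edgeR adjusted p = 0.0815), in the joint fit (0.14, edgeR adjusted p = 0.18), with the replicate block (0.20, edgeR adjusted p = 0.073), and without siYES1 replicate 1 (0.17, edgeR adjusted p = 0.0906) or 2 (0.17, edgeR adjusted p = 0.0986). TLN2, the second talin, fell by 0.24 in MDA-MB-231 (edgeR adjusted p = 0.0282) and was not called in SUM159PT (0.02).

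TNS3 encodes tensin 3, which binds actin and the β tail. In MDA-MB-231 TNS3 had 173, 176, 152 and 145 CPM with siYES1, against 306, 241, 301 and 302 CPM with siNS. In SUM159PT TNS3 had 197, 208, 202 and 216 CPM with siYES1, against 300, 246, 295 and 303 CPM with siNS. The groups did not overlap in either line (-0.78 ± 0.09, edgeR adjusted p = 1.77e-06 in MDA-MB-231, and -0.52 ± 0.08, edgeR adjusted p = 0.000286 in SUM159PT). TNS1, its relative, had 3 to 27 counts per library and was not called in MDA-MB-231 and not tested in SUM159PT.

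VCL encodes vinculin, which reinforces the bond of talin to actin. In MDA-MB-231 VCL had 509, 490, 447 and 441 CPM with siYES1, against 490, 353, 410 and 434 CPM with siNS. In SUM159PT VCL had 185, 209, 196 and 193 CPM with siYES1, against 156, 174, 157 and 173 CPM with siNS. The groups overlapped in MDA-MB-231 and were close in SUM159PT. The log2 fold changes of 0.22 ± 0.09 (edgeR adjusted p = 0.0476) and 0.21 ± 0.07 (edgeR adjusted p = 0.0406) just passed. On the opposite strand AP3M1, with 22571 counts in all libraries together, overlaps 11.1% of the exon bases of VCL. The strand setting is not given, so changes of VCL this small are uncertain for that reason too. In MDA-MB-231 the call was lost in 6 of 8 fits without 1 library (0.14 to 0.25, edgeR adjusted p = 0.0584 to 0.142), namely without siNS replicate 2, 3 or 4 or siYES1 replicate 1, 2 or 3. In SUM159PT it was lost in 5 of 8 (0.18 to 0.23, edgeR adjusted p = 0.0535 to 0.122), namely without siNS replicate 3 or any siYES1 library, and total counts as the scaling gave 0.04 there (edgeR adjusted p = 0.703). The call was also lost in MDA-MB-231 with total counts (edgeR adjusted p = 0.135), the filter at 1 CPM (edgeR adjusted p = 0.0559) and the joint fit (edgeR adjusted p = 0.153). In SUM159PT the replicate block (edgeR adjusted p = 0.0565) and the fit with no filter (edgeR adjusted p = 0.079) ended it as well. ZYX (zyxin) fell by 0.27 in MDA-MB-231 and was not called in SUM159PT (-0.12, edgeR adjusted p = 0.288), where it passed as lower without siNS replicate 1 (-0.21, edgeR adjusted p = 0.00349), and ACTN1 (α-actinin 1) fell by 0.21 in SUM159PT and was not called in MDA-MB-231. ACTN4 (α-actinin 4) was not called in either line. CTTN, cortactin, a Src substrate on branched actin, had 161, 183, 188 and 175 CPM with siYES1 in SUM159PT, against 245, 134, 132 and 148 CPM with siNS. The high siNS library was replicate 1, and the other siNS libraries lay below every siYES1 library. CTTN was not called there (0.06, edgeR adjusted p = 0.811) but passed as higher without that replicate (0.31, edgeR adjusted p = 0.00116), and it was not called in MDA-MB-231.

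In the complex of ILK, PINCH and parvin the members did not move alike. PARVA encodes α-parvin and rose in both lines. In MDA-MB-231 PARVA had 191, 198, 185 and 183 CPM with siYES1, against 146, 134, 132 and 127 CPM with siNS. In SUM159PT PARVA had 28.7, 25, 24.5 and 32.2 CPM with siYES1, against 20.1, 14.2, 14.7 and 17.5 CPM with siNS. The groups did not overlap (0.55 ± 0.07, edgeR adjusted p = 4.62e-06 in MDA-MB-231, and 0.69 ± 0.14, edgeR adjusted p = 0.00224 in SUM159PT). PARVB, β-parvin, fell by 0.36 in SUM159PT (42.4 to 45.7 CPM with siYES1, 48.2 to 58.9 CPM with siNS) and had 0 to 5 counts per library in MDA-MB-231.

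LIMS1 encodes PINCH1, which joins ILK through its LIM domain. In MDA-MB-231 LIMS1 had 59.9, 56.8, 57.1 and 55.1 CPM with siYES1, against 35.5, 31.6, 33.2 and 28 CPM with siNS. In SUM159PT LIMS1 had 190, 185, 179 and 192 CPM with siYES1, against 130, 191, 191 and 173 CPM with siNS. LIMS1 rose in MDA-MB-231 (0.89 ± 0.08, edgeR adjusted p = 2.07e-07) and overlapped between the groups in SUM159PT (0.08 ± 0.11, edgeR adjusted p = 0.594), with a difference of -0.71 (edgeR adjusted p = 0.000863). The lowest SUM159PT siNS library was replicate 1, and without it the value in SUM159PT was -0.04 (edgeR adjusted p = 0.639) and the difference -0.89 (edgeR adjusted p = 7.55e-07). Near-identical copies, LIMS3 and LIMS4, make its counts uncertain. ILK, the pseudokinase at the centre of the complex, had 4.74, 4.48, 5.12 and 2.2 CPM with siYES1 in MDA-MB-231, against 1.63, 1.06, 2.78 and 1.34 CPM with siNS. In SUM159PT ILK had 3.69, 4.25, 4.48 and 3.48 CPM with siYES1, against 3, 2.49, 3.31 and 3.14 CPM with siNS. ILK was called in MDA-MB-231, where 1 siYES1 library lay inside the siNS range (1.35 ± 0.29, edgeR adjusted p = 0.000931), and not in SUM159PT (0.37 ± 0.23, edgeR adjusted p = 0.247). On the opposite strand TAF10 overlaps 68.1% of the exon bases of ILK, which had 927 counts in all libraries together, so neither its level nor its change can be read as that of ILK transcripts with certainty.

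FERMT2 encodes kindlin 2, the broadly expressed kindlin. In SUM159PT FERMT2 had 212, 212, 207 and 232 CPM with siYES1, against 102, 129, 128 and 116 CPM with siNS. In MDA-MB-231 FERMT2 had 64.1, 67.1, 63.8 and 64.1 CPM with siYES1, against 69.5, 59.2, 58.2 and 54.7 CPM with siNS. FERMT2 rose in SUM159PT (0.82 ± 0.09, edgeR adjusted p = 1.25e-05) and was not called in MDA-MB-231 (0.16 ± 0.08, edgeR adjusted p = 0.118), with a difference of 0.76 (edgeR adjusted p = 9.05e-05). Without MDA-MB-231 siNS replicate 1, the highest of its group, the value in that line was 0.23 (edgeR adjusted p = 0.00804). Without SUM159PT siNS replicate 1, the lowest there, the value in SUM159PT was 0.74 (edgeR adjusted p = 1.14e-08). FERMT1, the kindlin of epithelia, fell by 0.31 in MDA-MB-231 and was not called in SUM159PT (-0.38, edgeR adjusted p = 0.0841).

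**Figure D3:**
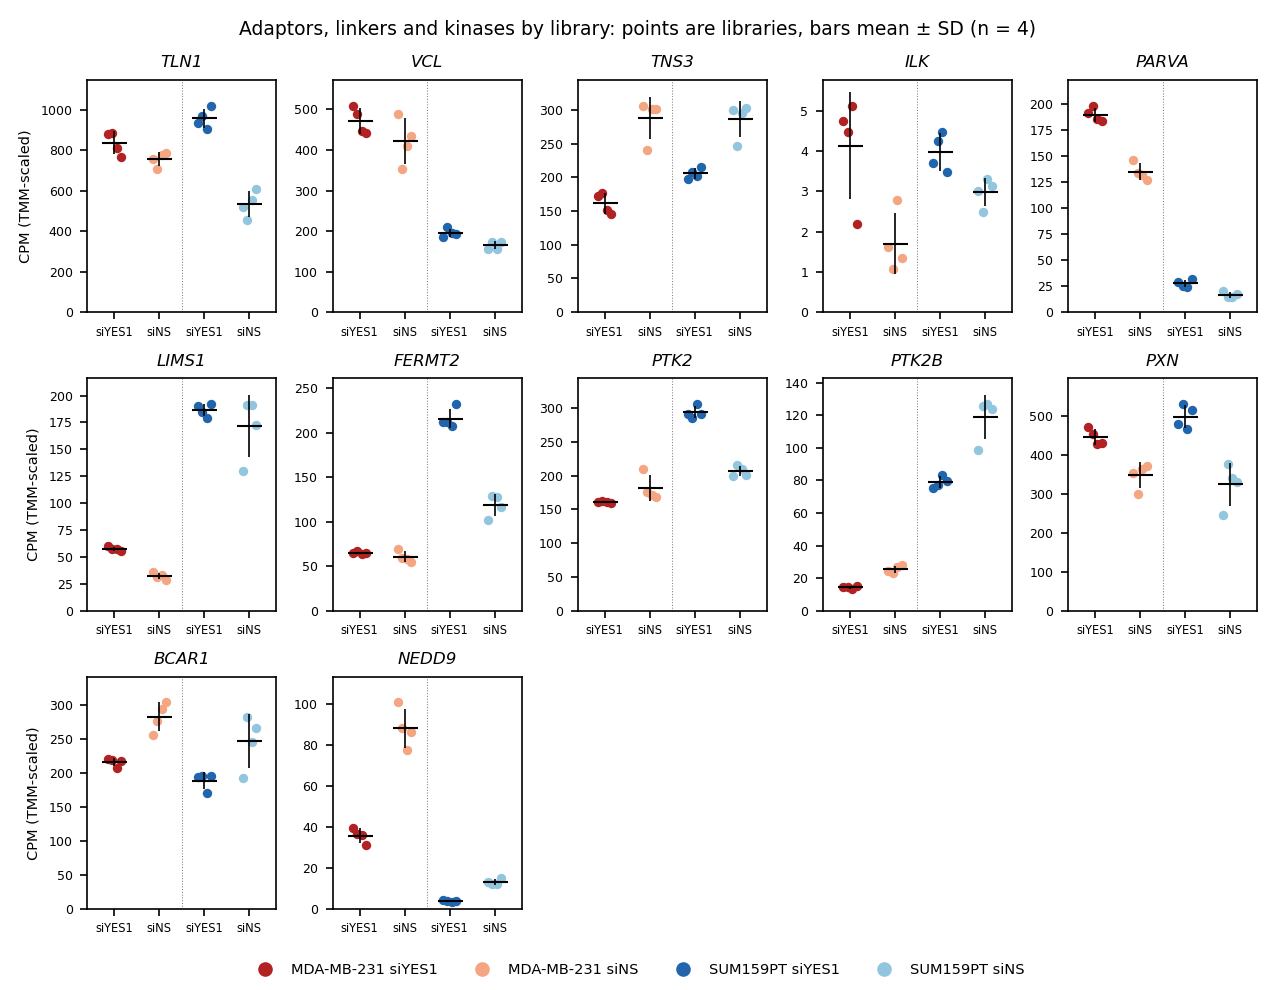
Level of the 12 adaptors, linkers and kinases described library by library (y axis, TMM-scaled CPM, linear and starting at 0, own scale per gene), with siYES1 left of siNS in each line. Points are libraries and bars are mean ± SD of 4 libraries. NEDD9, PTK2B and TNS3 are lower with siYES1 in both lines, PXN and PARVA are higher in both, and LIMS1 is higher in MDA-MB-231.

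The difference of the response between the lines was tested as the interaction of line and siRNA, SUM159PT minus MDA-MB-231. Of the 43 members 40 were tested, of which 9 were called higher and 8 lower. Over all 16299 genes tested 15.4% were called higher and 8.85% lower. These counts depend on the scaling. With TMM factors set within each line, which moved the median of all genes from 0.030 to -0.071, the members' split was 7 higher and 9 lower. With total counts as the scaling, which moved that median to -0.189, the split was 6 higher and 14 lower. In the main fit 5 were called higher and 5 lower among 14 integrins, and 4 higher and 3 lower among 26 adaptors. Total counts gave 3 higher and 8 lower among the integrins and 3 higher and 6 lower among the adaptors. With limma-voom the integrins had 5 higher and 3 lower and the adaptors 5 higher and 1 lower. Among genes tested in both lines, 7 members rose in both (ITGA3, ITGA6, ITGB1, PXN, TLN1, VCL and PARVA), 10 fell in both (ITGA7, ITGA10, ITGAV, ITGB4, ITGB5, PTK2B, BCAR1, TNS3, NEDD9 and CRK), and 0 rose in 1 line and fell in the other. The interaction calls of TNS3 (0.36, edgeR adjusted p = 0.0427) and NEDD9 (-0.45, edgeR adjusted p = 0.049) were marginal and were lost in 19 and 14 of 24 alternatives. That of ITGA7 (-1.16, edgeR adjusted p = 0.0337) was lost in 10 of 24. ITGAV was not called (-0.35, edgeR adjusted p = 0.0666) but passed in 9 of 24.

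**Figure D4:**
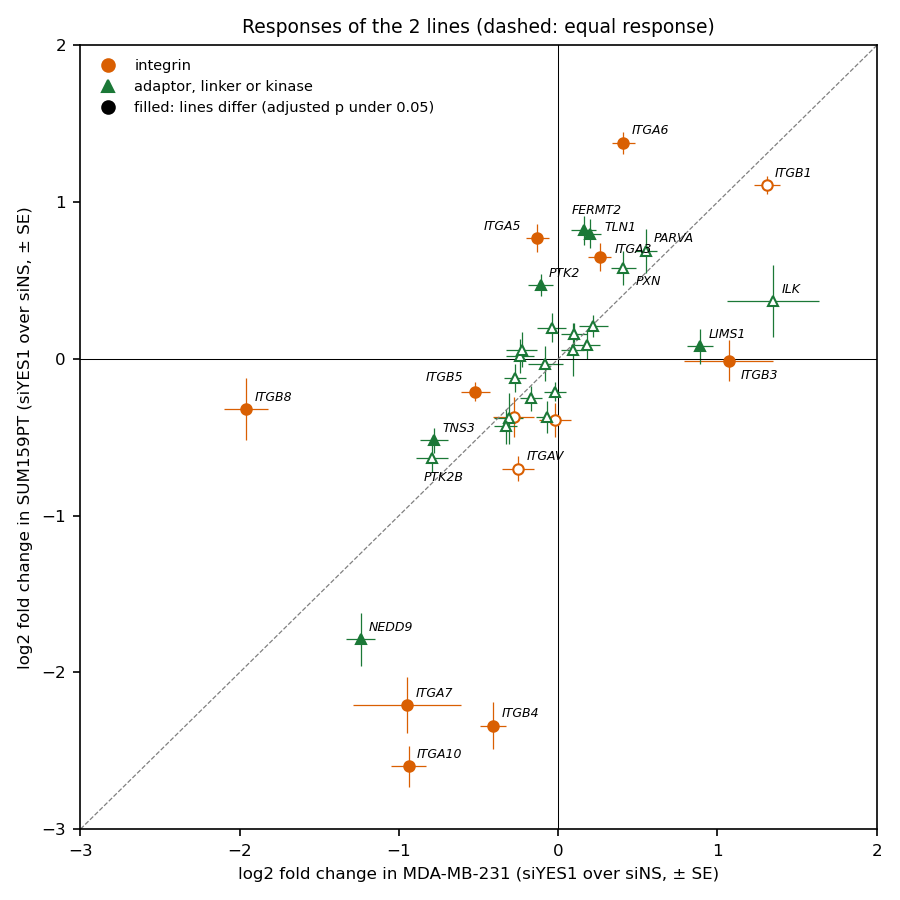
Log2 fold change with siYES1 in SUM159PT (y axis) against that in MDA-MB-231 (x axis) for the members tested in both lines, with bars ± SE. Circles are integrins, triangles adaptors, linkers and kinases, filled symbols are called in the interaction of line and siRNA, and the dashed line marks equal responses. ITGB1 lies high in both, ITGA5 and PTK2 lie left of 0 and above it, and ITGB4, ITGA10 and ITGA7 lie below the dashed line.

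The control libraries show which integrin transcripts each line carried. Per kilobase of exon the α chain of the highest level was ITGA5 in SUM159PT siNS (160.6 ± 23.7 CPM per kb) and ITGA3 in MDA-MB-231 siNS (175.8 ± 15.1). In SUM159PT siNS the order of levels per kb went on with ITGA3 (101.9 ± 14.4), ITGAV (36.8 ± 2.75), ITGA6 (22.5 ± 0.562), ITGA2 (17.4 ± 3.00) and ITGA10 (16.9 ± 2.21), of which ITGA2 and ITGA10 do not differ beyond their spread. In MDA-MB-231 siNS it went on with ITGA6 (78.8 ± 7.60), ITGA5 (42.6 ± 0.988), ITGA2 (34.1 ± 5.75) and ITGAV (24.2 ± 3.66). Of the β chains ITGB1 led in SUM159PT siNS (112.9 ± 2.29), followed by ITGB5 (43.9 ± 1.21) and ITGB4 (19.3 ± 4.30). In MDA-MB-231 siNS ITGB4 (76.5 ± 8.81) and ITGB1 (75.7 ± 8.87) could not be ordered within their spread, and ITGB5 followed (53.9 ± 7.15).

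Of 40 members tested for SUM159PT siNS against MDA-MB-231 siNS 17 were called higher and 16 lower, where 38.0% of all genes were called higher and 39.0% lower. All 14 tested integrins were called, 8 higher and 6 lower, and of 26 adaptors 9 were higher and 10 lower. The line, its table and any processing batch cannot be told apart in this comparison. Of the collagen receptor chains ITGA1 (1.31), ITGA10 and ITGA11 were higher in SUM159PT and ITGA2 lower (-0.97, edgeR adjusted p = 1.17e-07). Of the vitronectin receptor chains ITGAV (0.60) and ITGB3 were higher and ITGB5 lower (-0.30, edgeR adjusted p = 0.00172). ITGA11 had 77.5 to 86 CPM in SUM159PT siNS and 0.0502 to 0.248 CPM (1 to 5 counts) in MDA-MB-231 siNS. PARVB had 48.2 to 58.9 CPM in SUM159PT siNS and 0 to 0.132 CPM (0 to 3 counts) in MDA-MB-231 siNS. ITGB3, ITGA7 and ITGA10 were higher by 4.69, 4.33 and 2.98 on the log2 scale, and LIMS1, PTK2B, ITGA5 and FERMT2 by 2.42, 2.22, 1.92 and 0.98. Lower in SUM159PT were PARVA (-3.02 ± 0.11), NEDD9 (-2.75 ± 0.11), ITGB4 (-1.99 ± 0.13), ITGA6 (-1.81 ± 0.07), VCL (-1.35 ± 0.09) and CTTN (-1.17 ± 0.14), each with an edgeR adjusted p of 7.6e-08 or less. The 2 parvins thus stood in opposite order, with PARVB the higher in SUM159PT (7.29 CPM per kb, against 1.30 for PARVA) and PARVA the higher in MDA-MB-231 (10.5, against 0.00784 for PARVB).

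Some core adaptors stood close in both control groups. TNS3 had a log2 difference of -0.01 ± 0.09 (edgeR adjusted p = 0.94), GIT1 of 0.03 ± 0.09 (edgeR adjusted p = 0.783), ACTN1 of -0.09 ± 0.06 (edgeR adjusted p = 0.219) and PXN of -0.10 ± 0.10 (edgeR adjusted p = 0.351; 0.03 without SUM159PT siNS replicate 1). A p that misses the threshold does not show equal levels. PTK2 was just called higher in SUM159PT (0.19 ± 0.07, edgeR adjusted p = 0.0246), a call lost in 8 of 24 alternatives. Among all members ACTN4 had the highest mean level per kb in both lines, at 175.7 ± 13.7 in SUM159PT siNS and 242.8 ± 22.7 in MDA-MB-231 siNS. In SUM159PT siNS it could not be ordered above ITGA5 (160.6 ± 23.7) within their spread.

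**Figure D5:**
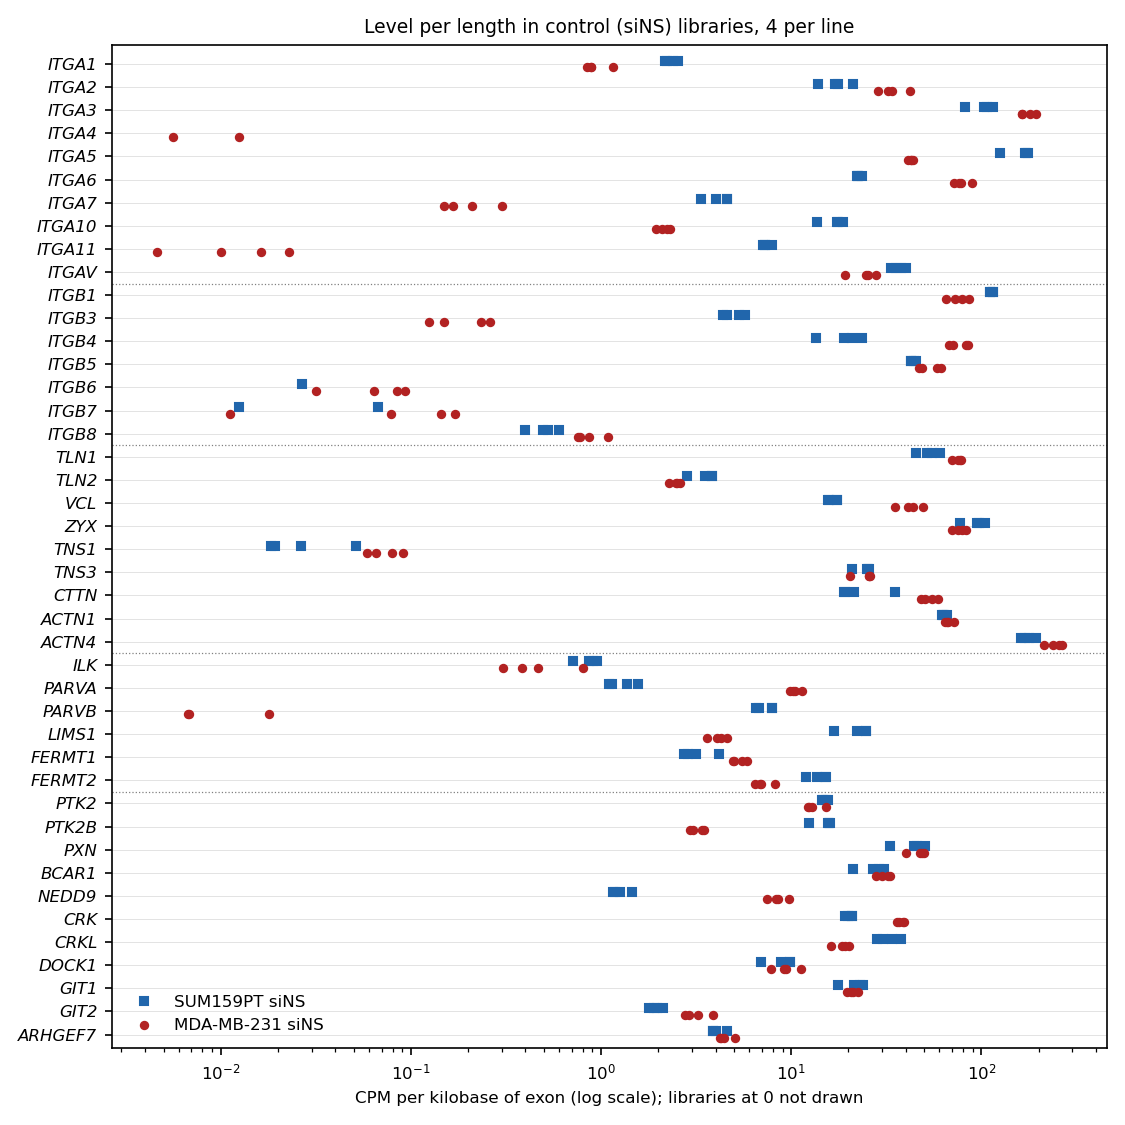
Level per length of each member in the siNS libraries (x axis, CPM per kilobase of exon, log scale, 1 symbol per library, libraries at 0 not drawn), with SUM159PT as squares and MDA-MB-231 as circles. ITGA11, ITGB3, ITGA7 and PARVB lie far to the right in SUM159PT, and PARVA, NEDD9, ITGB4 and ITGA6 lie to the right in MDA-MB-231.

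Ligands and further adhesion genes were listed beside the members. Of 48 genes of integrin ligands 10 rose and 16 fell of 39 tested in MDA-MB-231, with a median of -0.12, where 24.9% of all genes were called higher and 27.5% lower. In SUM159PT 10 rose and 14 fell of 41 tested, with a median of -0.20, where 17.7% of all genes were called higher and 19.0% lower. COL1A1, a chain of the fibrillar collagen bound by α10 and α11, fell to 18.9 ± 1.63 CPM with siYES1, against 43.7 ± 4.11 CPM with siNS, in MDA-MB-231 (-1.15 ± 0.10, edgeR adjusted p = 4.81e-08), and by 1.39 in SUM159PT. COL5A1, another fibrillar collagen chain, fell by 1.15 in MDA-MB-231 and by 0.89 in SUM159PT. LAMC1, the γ1 chain shared by most laminins, rose to 490 ± 21.1 CPM with siYES1, against 170 ± 28 CPM with siNS, in SUM159PT (1.49 ± 0.11, edgeR adjusted p = 5.58e-07), and by 0.92 in MDA-MB-231. COL6A1 and COL6A2, chains of the microfibril collagen, fell by 1.61 and by 1.41 in SUM159PT. TGFB1, whose latent form αVβ8 binds, fell by 1.01 in MDA-MB-231 and had a log2 fold change of 0.01 in SUM159PT (edgeR adjusted p = 0.938).

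Of 68 further adhesome genes 12 rose and 19 fell of 60 tested in MDA-MB-231, beside 24.9% higher and 27.5% lower over all genes. In SUM159PT 19 rose and 13 fell of 59 tested, beside 17.7% higher and 19.0% lower over all genes. RAP1A, a small GTPase that recruits talin, fell by 1.10 in MDA-MB-231, and so did APBB1IP (RIAM, its link to talin) by 0.81 and EVL, an actin elongation factor of the Ena/VASP family, by 1.00. In SUM159PT RHOA, the GTPase that drives stress fibers, rose by 0.90, the receptor phosphatase PTPRF by 1.33 and ABI1, a subunit of the WAVE complex, by 0.90. Of 9 integrin chains outside the 43 genes 2 were tested in each line. The leukocyte chain ITGB2 fell to 12.3 to 13.9 CPM with siYES1, against 49.8 to 59.6 CPM with siNS, in MDA-MB-231 (-2 ± 0.09, edgeR adjusted p = 8.34e-11), where ITGAE rose by 0.30.

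Markers of other cell types moved with siYES1 and are given here as values. The summed level of 4 leukocyte markers was 14 to 15.4 CPM with siYES1 and 57.6 to 68 CPM with siNS in MDA-MB-231, and 0.635 to 1.76 CPM with siYES1 and 3.99 to 7.08 CPM with siNS in SUM159PT. Of these 4 markers 2 fell of 2 tested in each line, ITGB2 and CD14 in MDA-MB-231 and CD14 and PTPRC in SUM159PT. PTPRC, the marker common to leukocytes, stood at 0 in all SUM159PT siYES1 libraries and at 0 to 0.178 CPM with siYES1 and 0.327 to 0.743 CPM with siNS in MDA-MB-231. The T cell marker CD3E and the endothelial CDH5 stood at 0 to 0.224 CPM in all libraries. The summed level of 2 endothelial markers was 2.24 to 3.92 CPM with siYES1 and 4.16 to 8.69 CPM with siNS in MDA-MB-231, and 0.289 to 0.511 CPM with siYES1 and 1.12 to 3.12 CPM with siNS in SUM159PT, and PECAM1, 1 of the 2, fell in each line.

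Of 4 fibroblast markers 2 fell of 2 tested in MDA-MB-231 (COL1A1 and PDGFRB) and 3 fell of 4 tested in SUM159PT (COL1A1, PDGFRA and PDGFRB). Their summed level was 21.4 to 26.8 CPM with siYES1 and 57.5 to 68.6 CPM with siNS in MDA-MB-231, and 667 to 782 CPM with siYES1 and 1784 to 2046 CPM with siNS in SUM159PT. The mesenchymal VIM rose in both lines, by 0.77 in MDA-MB-231 and by 0.80 in SUM159PT. The summed level of 4 epithelial markers was 249 to 267 CPM with siYES1 and 432 to 513 CPM with siNS in SUM159PT, and 1415 to 1489 CPM with siYES1 and 1034 to 1355 CPM with siNS in MDA-MB-231. Of these 4 epithelial markers 2 rose and 1 fell of 4 tested in MDA-MB-231, and 2 fell of 2 tested in SUM159PT. The keratins KRT8 and KRT18 fell by 0.86 and by 1.04 in SUM159PT and rose by 0.43 and by 0.31 in MDA-MB-231. The share of counts on the mitochondrial genome was 1.79% to 2.10% with siYES1 and 2.14% to 2.50% with siNS in SUM159PT, and 1.45% to 1.79% with siYES1 and 1.26% to 1.94% with siNS in MDA-MB-231. The part of these markers in the integrin results was not tested. In such bulk samples, fewer cells of a type and less RNA per cell cannot be told apart.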

How the data were processed

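The submitters' processing notes name hg38, the aligner HISAT2 2.0.5 and the counter featureCounts 1.5.0-p3. What the authors deposited is raw whole-number counts per gene, in 1 table per line. Of the annotation release and the strand setting nothing is given in the sources used here. All 58735 gene IDs were found in GENCODE 29, which gave symbols, exon lengths and GRCh38 coordinates.

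Each line was fitted on its 8 libraries by the quasi-likelihood F test of edgeR 4.0.16 under R 4.3.3, after TMM scaling and filterByExpr. The interaction and the siNS comparison of the lines used 1 fit of all 16 libraries. Scripts were checked on simulated counts. Alternatives are named in the closing section.

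The members and gene lists were chosen with earlier results of these data known. Given library by library were members with an adjusted p under 0.05, an absolute log2 fold change of at least 0.58 and a mean of at least 5 CPM in a line, the leading α and β chain of each line, members with opposite signs in the lines that were called in the interaction, and PTK2, PXN, BCAR1, TLN1, VCL, ILK and ITGB1. Of other lists up to 3 genes per line were named. Libraries of a group differed beyond counting noise (chi-squared per degree of freedom 2.21 to 49.6), so none was a duplicate.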

Additional observations from a re-analysis of the deposited data

Results flagged for a closer look

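For 14 of the 22 members given library by library the siYES1 response differed between the lines in the test of the difference itself (SUM159PT minus MDA-MB-231, log2). These 22 were chosen partly by the size of their response and by this same test, which raises that count. Of all 40 members tested 17 were called, beside 15.4% higher and 8.85% lower over all 16299 genes. Among the 14 the response was more positive in SUM159PT for ITGB8 (1.73), ITGA6 (1.06), ITGA5 (1.00), FERMT2 (0.76), TLN1 (0.70), PTK2 (0.68), ITGA3 (0.48) and TNS3 (0.36). It was more negative in SUM159PT for ITGA11 (-2.89), ITGB4 (-1.83), ITGA10 (-1.55), ITGA7 (-1.16), LIMS1 (-0.71) and NEDD9 (-0.45). Of these, ITGA5, PTK2 and FERMT2 were called in SUM159PT and not in MDA-MB-231, and ITGB8 and LIMS1 in MDA-MB-231 and not in SUM159PT.

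Single libraries stood apart from the other 3 of their group in 7 of 88 groups checked, where chance gives about 1 in 20. In SUM159PT siYES1 BCAR1 was lowest in replicate 3 (170 CPM, against 194 to 196). In SUM159PT siNS replicate 1 was lowest for ITGA5 (950 CPM) and PTK2B (98.8 CPM, against 124 to 127), replicate 2 for TNS3 (246 CPM, against 295 to 303), and replicate 4 was highest for ITGA11 (86 CPM, against 77.5 to 78.8). In MDA-MB-231 siYES1 FERMT2 was highest in replicate 2 (67.1 CPM, against 63.8 to 64.1), and in MDA-MB-231 siNS TNS3 was lowest in replicate 2 (241 CPM, against 301 to 306).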

How the results depend on the processing

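Alternatives of single members were followed for the 22 members given library by library, which were chosen partly by the size of their response. Small calls of the other members are not in this count. Of these 1744 values 1616 kept their direction and their side of the threshold, 84 lost the call, 22 gained it, and 22 changed sign, of which 0 were called. Without 1 library the integrins that fell numbered 6 to 8 in SUM159PT and 4 to 6 in MDA-MB-231. The sign turned for LIMS1 in SUM159PT with total counts (-0.08) and without siNS replicate 1 (-0.04 to 0.14 without 1 library), for PXN between the siNS groups without SUM159PT siNS replicate 1 (-0.19 to 0.03 without 1 library), and for TNS3 between the siNS groups (0.02 with the 1 CPM filter, 0.01 with the siNS libraries alone, -0.09 to 0.06 without 1 library). It also turned for the interaction of VCL (-0.13 with total counts, -0.02 with TMM within each line, -0.00 to 0.17 without 1 library) and of BCAR1, which was -0.00 (0.01 with limma-voom and with the replicate block, -0.17 to 0.07 without 1 library). The alternatives were RLE scaling, total counts, all genes unfiltered, only genes with a mean of at least 1 CPM, limma-voom (limma 3.58.1), DESeq2 1.42.0, a replicate block, a joint fit or TMM factors within each line, the siNS libraries alone, and leaving out each library. The count of members with a more negative response in SUM159PT, 8, was 14 with total counts and 4 with limma-voom, and the same settings moved the integrin and adaptor parts of that count. The interaction count of integrins that were more positive, 5, was 3 with total counts. The counts of all members in the other comparisons stayed within 1.5 times. Total counts moved the median of all genes in SUM159PT from -0.029 to -0.200. Without 1 library the members that rose and fell numbered 8 to 12 and 10 to 15 in MDA-MB-231, in SUM159PT 9 to 12 and 12 to 17, 8 to 10 and 6 to 10 for the interaction, and 15 to 17 and 15 to 17 between the siNS groups. Replicate numbers did not pair the libraries (correlations of same-numbered libraries -0.074 to 0.042). With the replicate block 9 members rose and 14 fell in MDA-MB-231. The block gave 9 and 16 in SUM159PT, 8 and 7 in the interaction, and 17 and 16 between the siNS groups. ITGB3 and ILK in MDA-MB-231 rest on 11 to 35 and 21 to 89 counts per library.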
